A study of Mus musculus with 12 samples.

Results

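The acute phase proteins described here are 10 genes of the mouse count table chosen by name: the serum amyloid A genes Saa1, Saa2, Saa3 and Saa4, the orosomucoid genes Orm1 and Orm2, haptoglobin (Hp), lipocalin 2 (Lcn2), ceruloplasmin (Cp) and C-reactive protein (Crp). All 10 were present among the 53599 genes of the table, and all 10 passed the filter on low counts that left 16210 genes for testing. RNA had been sequenced from cells sorted from the livers of mice given as wild-type, in 4 groups of 3 libraries. All mice carried AAV8-TBG-Cre, in which the hepatocyte promoter TBG drives Cre, and EGFP marks hepatocytes and their descendants. The EGFP reporter on which Cre acts is not described here. From 1 week after the virus the mice ate a diet with 0.1% of the bile duct toxicant 3,5-diethoxycarbonyl-1,4-dihydrocollidine (DDC), for 8 weeks. The early group was sorted as EGFP+ Cd24- Epcam-, the intermediate group as EGFP+ Cd24+ Epcam- and the full group as EGFP+ Cd24+ Epcam+. Biliary epithelial cells (BEC) were sorted as EGFP- Epcam+. The virus and the diet were common to all 4 groups, so no group gives the level in an uninjured liver. The strain, the age of the mice and whether animals were pooled are not given in the sources used here, and p-values measure the spread between these libraries.

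Acute phase proteins are plasma and secreted proteins whose synthesis by hepatocytes changes during inflammation. Interleukin 6, acting through the receptor Il6ra, its partner Il6st and the factor STAT3, and interleukin 1 and TNF, acting through NF-kB, are the classical inducers, together with the C/EBP factors. Serum amyloid A rides on high density lipoprotein, the orosomucoids bind small lipophilic molecules, haptoglobin captures free haemoglobin, lipocalin 2 binds bacterial siderophores, ceruloplasmin is a copper ferroxidase and C-reactive protein is a pentraxin. Lipocalin 2 is also made by many injured epithelia, and in the mouse C-reactive protein responds to inflammation only weakly.

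The stretches before the transcription starts are printed here for 5 members: Saa1, Saa2 and Orm2, which were lower in intermediate than in early cells and lower again in full cells, Lcn2, which was lower in intermediate but higher again in full cells, and Saa3, whose window held the most matches to the motif shown. RefSeq promoter entries (GRCm38.p6) matched 8 of the 10 members by symbol, and Orm1 and Hp had none. Each sequence below is the 250 bases before the annotated start, 5′ to 3′, with matches to the C/EBP motif TTNNGNAA, on either strand, in capitals. The windows are chr7:46742981-46743230, minus strand for Saa1, chr7:46751583-46751832, plus strand for Saa2, chr7:46715677-46715926, minus strand for Saa3, chr4:63362199-63362448, plus strand for Orm2 and chr2:32387740-32387989, minus strand for Lcn2.
Saa1: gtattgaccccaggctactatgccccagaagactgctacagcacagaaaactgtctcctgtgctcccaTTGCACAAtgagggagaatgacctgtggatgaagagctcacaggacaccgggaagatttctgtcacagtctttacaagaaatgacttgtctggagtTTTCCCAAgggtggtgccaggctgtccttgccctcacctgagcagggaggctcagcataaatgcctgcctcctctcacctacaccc
Saa2: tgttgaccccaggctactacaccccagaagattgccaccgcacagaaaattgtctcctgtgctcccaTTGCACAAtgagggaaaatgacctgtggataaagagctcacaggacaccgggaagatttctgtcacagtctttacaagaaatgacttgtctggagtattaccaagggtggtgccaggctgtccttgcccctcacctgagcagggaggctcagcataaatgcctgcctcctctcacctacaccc
Saa3: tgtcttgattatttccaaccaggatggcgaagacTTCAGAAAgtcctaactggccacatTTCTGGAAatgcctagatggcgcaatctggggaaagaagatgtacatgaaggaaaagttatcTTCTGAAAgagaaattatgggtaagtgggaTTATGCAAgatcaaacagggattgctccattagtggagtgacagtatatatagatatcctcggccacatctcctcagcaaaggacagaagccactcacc
Orm2: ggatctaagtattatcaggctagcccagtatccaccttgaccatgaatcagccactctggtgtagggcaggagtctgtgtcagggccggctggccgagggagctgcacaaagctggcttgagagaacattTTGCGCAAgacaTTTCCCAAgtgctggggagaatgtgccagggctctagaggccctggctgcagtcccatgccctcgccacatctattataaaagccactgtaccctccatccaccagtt
Lcn2: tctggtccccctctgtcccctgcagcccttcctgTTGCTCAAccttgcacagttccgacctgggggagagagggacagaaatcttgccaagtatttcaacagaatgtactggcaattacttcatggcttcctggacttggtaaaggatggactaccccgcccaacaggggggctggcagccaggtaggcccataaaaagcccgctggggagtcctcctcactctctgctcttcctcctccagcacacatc

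The Saa1 and Saa2 windows were 94.8% identical over 251 aligned columns and shared the match TTGCACAA, while a second Saa1 match, TTTCCCAA, between 86 and 79 bases before the start was not in the Saa2 window. The Saa3 window held 4 matches to the motif. In the Orm2 window TTGCGCAA matched on both strands, and a further TTTCCCAA lay between 108 and 101 bases before the start. The Lcn2 window held 1 match, TTGCTCAA, between 216 and 209 bases before the start. All 8 members with an entry, also Saa4, Cp and Crp, had at least 1 match, and of all 32851 promoter windows of 250 bases 36.8% had one. The STAT motif TTCNNNGAA, in 7.02% of all windows on either strand, matched none of the members' windows. Of 4 motifs searched, these 2 are described. A match is a stretch of letters and not a measured binding site.

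The libraries held between 15112893 and 19731887 counts. Levels are given as CPM, depth-scaled counts for which library sizes were multiplied by TMM factors. The factors were between 0.652 and 0.672 in the early group, between 1.03 and 1.05 in the intermediate group and between 1.19 and 1.22 in the full and BEC groups. Without these factors, on total counts, the median gene shifted from 0.06 to 0.72 in log2 fold change for intermediate against early cells, from 0.14 to 1.004 for full against early and from 0.14 to 1.003 for BEC against early. Directions are therefore relative to the TMM scale, and the members whose direction turns are named where they are described. The sorted genes followed the gates: Cd24a was at 3.20 ± 2.16, 444 ± 75.7, 1073 ± 128 and 1072 ± 200 CPM and Epcam at 0.591 ± 0.250, 18.8 ± 7.23, 254 ± 41.0 and 865 ± 35.5 CPM in early, intermediate, full and BEC (SD, n = 3). The summed level of 10 hepatocyte markers was between 102697 and 107622 CPM in early, 15208 and 19824 in intermediate, 3241 and 4277 in full and 2063 and 2742 CPM in BEC libraries. All 10 were called lower in intermediate than in early cells (median log2 fold change -2.57), as were 25.5% of all genes. All 10 were also called lower in full than in intermediate cells (median -2.80), as were 19.9% of all genes. In sorted bulk RNA, fewer cells that make a transcript and less of it per cell cannot be told apart.

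All 10 members differed among the 4 groups by edgeR's quasi-likelihood test over all groups at once, with p adjusted over all genes tested by Benjamini-Hochberg, as did 75.4% of the 16210 genes. The comparisons of intermediate with early, full with intermediate and BEC with full cells are called the first, second and last step below, which orders the groups and does not show that one gives rise to the next. Between early and intermediate cells, 9 of the 10 members fell and none rose, with Cp the exception. There 54.2% of all genes were called, 28.6% higher and 25.5% lower. The 9 members were also those without overlap between libraries, a feature of 58.7% of all genes. The median log2 fold change of the 10 members was -3.05, against 0.06 over all genes.

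Between intermediate and full cells, 9 members fell and Lcn2 rose, where 40.7% of all genes were called, 20.8% higher and 19.9% lower. No member's libraries overlapped between these groups, and 55.0% of all genes shared that feature. The median of the members was -2.69, against 0.01 over all genes. Between full cells and BEC, Hp was lower, Lcn2 was higher and 8 members were not called. There 21.2% of all genes were called, 10.6% higher and 10.6% lower. Hp, Lcn2 and Crp were the 3 members without overlap, against 39.6% of all genes. The median of the members was -0.05, against 0.0046 over all genes.

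Taking the ends, 9 members were lower in full than in early cells, where 71.1% of all genes were called, 39.0% higher and 32.1% lower, and 74.4% did not overlap. In BEC against early cells 9 members were again lower, where 72.9% of all genes were called, 40.0% higher and 32.9% lower, and 74.7% did not overlap. Lcn2 was the member not called, and the member with overlap, in both. Against intermediate cells, BEC had 9 members lower and Lcn2 higher, all without overlap, where 52.3% of all genes were called, 26.2% higher and 26.1% lower, and 61.0% did not overlap. These comparisons share libraries.

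**Figure D1:**
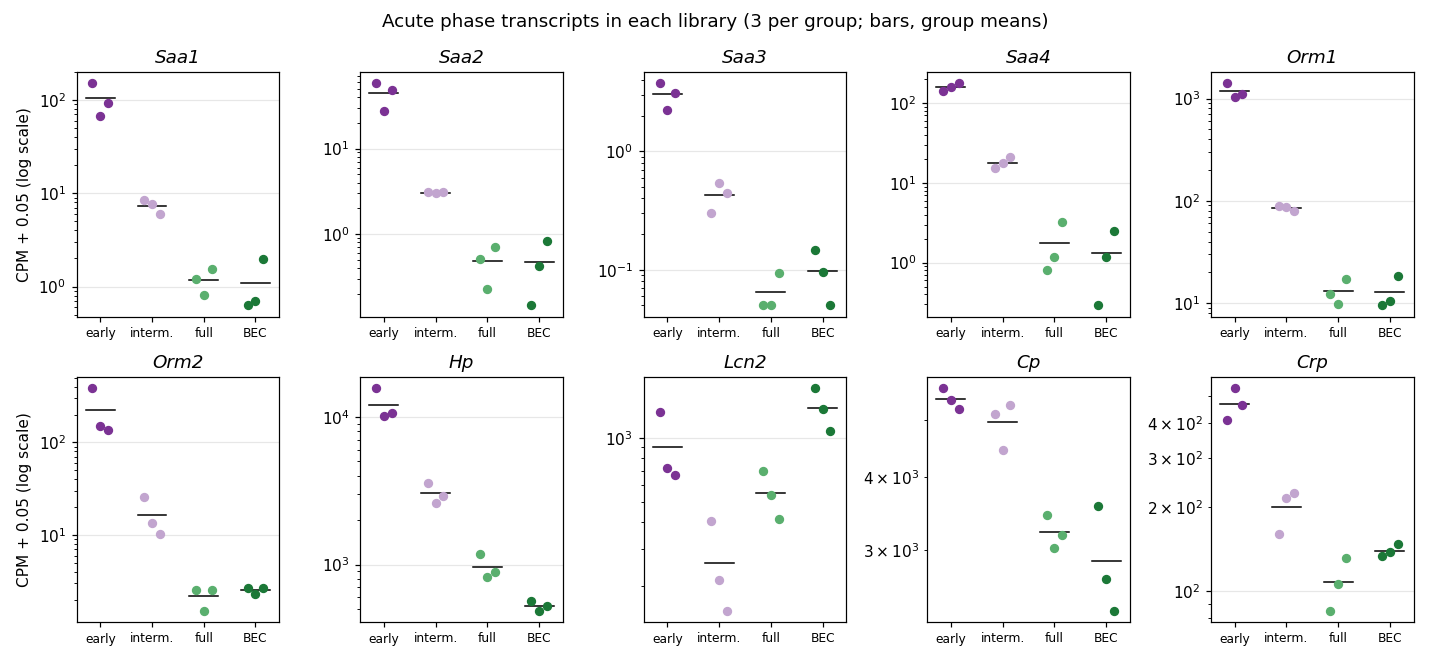
Level of each acute phase transcript (CPM plus 0.05, log axis, a separate scale for each gene) in the 3 libraries of each group, with bars at the group means. The Saa and Orm genes are lower in intermediate than in early libraries and lower again in full and BEC, Hp is lower at each step, Lcn2 is lowest in intermediate libraries, and Cp spans a narrow range.

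Serum amyloid A1 and A2, the acute phase apolipoproteins, fell at the first and second steps. Saa1 was at 152, 67.2 and 92.2 CPM in early libraries 1 to 3, at 8.41, 7.66 and 5.88 CPM in intermediate, at 1.15, 0.757 and 1.49 CPM in full and at 0.577, 0.652 and 1.92 CPM in BEC. The early and intermediate libraries stood clear of each other and of the rest, while full and BEC libraries overlapped. Saa1 fell 14.2-fold from early to intermediate (-3.83 on the log2 scale, SE 0.37, edgeR adjusted p 5.63e-06), fell again from intermediate to full (-2.68, SE 0.45, edgeR adjusted p 7.10e-04) and was not called between BEC and full (-0.10, SE 0.57, edgeR adjusted p 0.941). Saa2 was at 58.4, 27.2 and 48.3 CPM in early, at 3.01, 2.96 and 3.05 CPM in intermediate, at 0.468, 0.178 and 0.655 CPM in full and at 0.0962, 0.372 and 0.776 CPM in BEC libraries. Its groups separated in the same way, with log2 fold changes of -3.89 (SE 0.36) and -2.77 (SE 0.49) at the first 2 steps (edgeR adjusted p 1.70e-06 and 6.66e-04). The sign of the BEC against full difference of Saa1 and Saa2 turned when single libraries were left out, and these libraries held between 2 and 42 counts of either gene. Saa1 held 69.7% ± 3.59, 70.5% ± 4.15, 73.8% ± 6.25 and 73.5% ± 11.2 of the summed Saa1 and Saa2 counts in early, intermediate, full and BEC (SD, n = 3), and the 4 groups overlapped in this share. Their principal transcripts in GENCODE M21 were 87.3% identical and shared no stretch of 100 bases, whereas how reads matching several genes were counted is not given in the sources used here.

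Saa4, which encodes the constitutive serum amyloid A of mouse liver, was below Saa1 in early cells per kilobase of transcript, at 76.6 ± 8.54 against 171 ± 71.7 CPM per kb (SD, n = 3). It was at 143, 159 and 179 CPM in early, at 15.3, 17.5 and 21.1 CPM in intermediate, at 0.765, 1.11 and 3.19 CPM in full and at 0.241, 1.12 and 2.42 CPM in BEC libraries. It fell 8.92-fold at the first step (-3.16, SE 0.42, edgeR adjusted p 1.07e-04) and further at the second (-3.41, SE 0.51, edgeR adjusted p 4.01e-04). The constitutive gene thus moved in the same direction as the inducible ones, with full and BEC libraries overlapping. Saa3, which is made mainly outside the liver and by activated macrophages, was the rarest member per kilobase of transcript. It had 47, 24 and 38 counts in early, 4, 9 and 7 counts in intermediate, 0, 0 and 1 counts in full and 2, 1 and 0 counts in BEC libraries. The early level was 2.99 ± 0.770 CPM (SD, n = 3), and the full and BEC libraries were all at or under 3 counts, a floor of between 0.128 and 0.144 CPM there. Saa3 was 7.85-fold higher in early than in intermediate cells over the summed counts (95% exact interval 4.84 to 13.4) and 208-fold higher than in full cells (36.6 to 8303), intervals that cover counting error only. The summed level of 10 macrophage markers was between 24.3 and 26.6 CPM in early, 30.3 and 37.2 in intermediate, 65.3 and 92.6 in full and 132 and 156 CPM in BEC libraries. Most of the sum in BEC was Csf1r, at a mean of 3.94, 24.6, 67.7 and 127 CPM from early to BEC, whereas Cd68 was at 13.9, 2.74, 1.62 and 3.46 CPM. Of the 8 markers tested in BEC against early, 1 was higher (Csf1r), 1 was lower (Cd68) and 6 were not called. Csf1r, Cd68 and, below, Ltf were named after their values were seen. The part of macrophages in the Saa3 level was not tested.

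The orosomucoids, also called alpha-1-acid glycoproteins, fell at the same steps as Saa1, and Orm1 was the 51st of 50067 genes per kilobase of transcript in early cells. Orm1 was at 1420, 1032 and 1111 CPM in early, at 88.0, 87.2 and 79.1 CPM in intermediate, at 12.3, 9.76 and 17.2 CPM in full and at 9.43, 10.3 and 18.3 CPM in BEC libraries. Early and intermediate libraries did not overlap with each other or with the rest, and full and BEC did. Orm1 fell 14.0-fold (-3.81, SE 0.27, edgeR adjusted p 3.22e-07) and then by 2.69 on the log2 scale (SE 0.26, edgeR adjusted p 1.03e-05), and was not called between BEC and full (-0.04, SE 0.26, edgeR adjusted p 0.944). Orm2 was at 386, 151 and 138 CPM in early, at 25.7, 13.4 and 10.2 CPM in intermediate, at 2.51, 1.47 and 2.49 CPM in full and at 2.60, 2.23 and 2.60 CPM in BEC libraries. Replicate 1 was the highest of its group in early, intermediate and full cells. Orm2 changed by -3.78 (SE 0.47, edgeR adjusted p 8.17e-05) and -2.91 (SE 0.54, edgeR adjusted p 0.00193). Orm1 and Orm2 transcripts were 91.0% identical and shared 6.95% of their stretches of 100 bases, so their split is uncertain. Within that limit, Orm1 held 84.1% ± 5.54, 83.5% ± 6.26, 84.5% ± 1.80 and 81.9% ± 4.06 of the counts of Orm1, Orm2 and Orm3 in the 4 groups from early to BEC (SD, n = 3). Orm3, another gene of the family, had a mean of 13.7 CPM in early and 0.945 CPM in intermediate libraries.

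**Figure D2:**
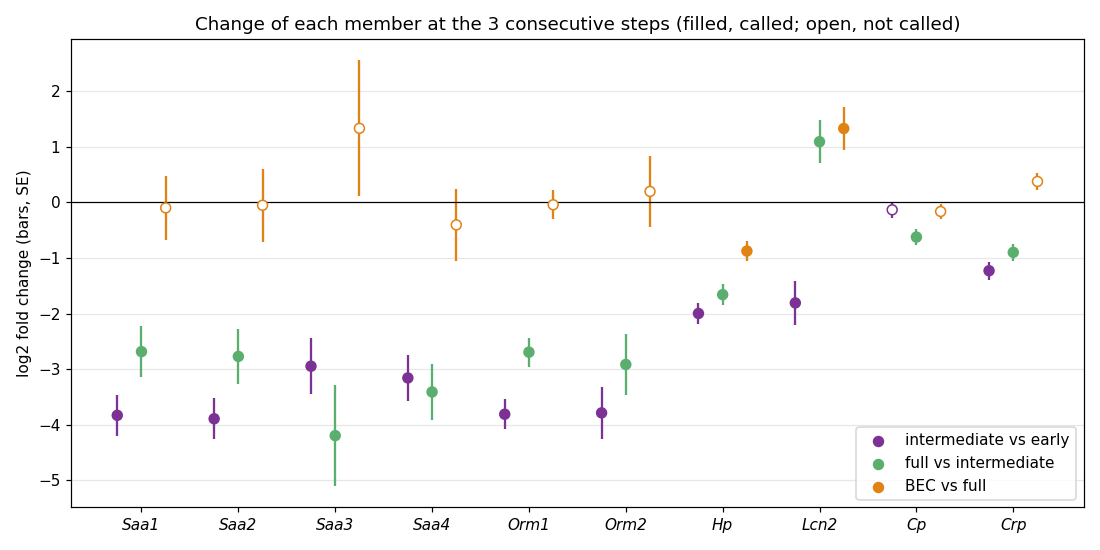
Log2 fold change of each member, with its SE, for intermediate against early, full against intermediate and BEC against full, with filled points where the gene was called. Saa1, Saa2, Orm1 and Orm2 lie between -3.89 and -3.78 at the first step, and Lcn2 is the only member called above 0, at the second and last steps.

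Haptoglobin was the most abundant member in early cells per kilobase of transcript and fell at all 3 steps. Hp was at 15679, 10160 and 10582 CPM in early, at 3587, 2600 and 2935 CPM in intermediate, at 1177, 824 and 889 CPM in full and at 562, 486 and 527 CPM in BEC libraries. None of the 4 groups overlapped. The changes were -1.997 (SE 0.19, edgeR adjusted p 6.34e-07), -1.66 (SE 0.19, edgeR adjusted p 7.85e-06) and -0.88 (SE 0.18, edgeR adjusted p 0.00289), which add up to a level 23.1-fold lower in BEC than in early cells. Per kilobase of its principal transcript, Hp ranked 8th of 50067 genes in early cells and 66th in BEC.

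Lipocalin 2 was lowest in intermediate cells and highest in BEC. It was at 1322, 720 and 669 CPM in early, at 408, 214 and 153 CPM in intermediate, at 700, 537 and 413 CPM in full and at 1709, 1359 and 1076 CPM in BEC libraries. Early libraries overlapped with both full and BEC, whereas intermediate libraries lay below all others and BEC libraries lay above all full ones. Lcn2 fell 3.50-fold at the first step (-1.81, SE 0.40, edgeR adjusted p 0.00315), rose 2.13-fold at the second (1.09, SE 0.39, edgeR adjusted p 0.0484) and was 2.51-fold higher in BEC than in full cells (1.33, SE 0.39, edgeR adjusted p 0.0366). BEC were 5.35-fold above intermediate cells (2.42, SE 0.41, edgeR adjusted p 5.79e-04). Full against early (-0.72, SE 0.39, edgeR adjusted p 0.124) and BEC against early (0.61, SE 0.39, edgeR adjusted p 0.180) were not called. On total counts, full against early became 0.15 (edgeR adjusted p 0.725) and BEC against early 1.48 (edgeR adjusted p 0.00534). With replicate number as a block, on the TMM scale, both were called (-0.68, edgeR adjusted p 3.10e-04, and 0.66, edgeR adjusted p 3.75e-04).

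Same-numbered libraries of the groups at each step deviated together, and within each of the 3 numbers Lcn2 was higher in full than in intermediate and higher in BEC than in full libraries. With replicate number as a block, the second step was 1.17 (edgeR adjusted p 7.21e-06) and the last step 1.34 (edgeR adjusted p 4.10e-06). In the fit without the block, the rise at the second step lay close to the threshold. It was not called there without early replicate 2 (edgeR adjusted p 0.0615) or 3 (0.0550), intermediate replicate 2 (0.141) or 3 (0.138), full replicate 1 (0.145) or 2 (0.0994), or BEC replicate 1 (0.0580), 2 (0.0692) or 3 (0.0627), with log2 fold changes between 0.82 and 1.11. Between BEC and full, the calls lost by leaving out a library, also without the block, were those without full replicate 2 (edgeR adjusted p 0.110) or 3 (0.137) or BEC replicate 1 (0.120), 2 (0.0849) or 3 (0.0514), with log2 fold changes between 1.15 and 1.48. Lcn2 is also a granule protein of neutrophils, and the summed level of 10 neutrophil markers was between 0.323 and 0.869 CPM in early, 0.377 and 1.13 in intermediate, 0.262 and 0.680 in full and 2.17 and 6.80 CPM in BEC libraries. Ltf, the only one of the 10 that passed the filter, held most of the BEC sum, at 3.70 ± 2.33 CPM (SD, n = 3). Ltf was not called at the first step and was called higher at the second (4.31) and last (2.85), as was Lcn2. Of the other markers, Ly6g, Elane, Mpo, Camp, Ngp and Cxcr2 had 0 counts in all 3 BEC libraries. Csf3r, S100a8 and S100a9 had 11, 2 and 1 counts there, against 2, 0 and 0 in full libraries. The part of neutrophils in the Lcn2 level was not tested. Per kilobase of transcript, Lcn2 ranked 77th of 50067 genes in early, 161st in intermediate, 37th in full and 9th in BEC.

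Ceruloplasmin had the smallest fold between its highest and lowest group mean among the 10 genes. Cp was at 5672, 5413 and 5230 CPM in early, at 5123, 4444 and 5306 CPM in intermediate, at 3443, 3029 and 3183 CPM in full and at 3575, 2676 and 2367 CPM in BEC libraries. Early and intermediate libraries overlapped, as did full and BEC, and these pairs did not overlap with each other. The first step was not called (-0.13, SE 0.14, edgeR adjusted p 0.445), the second was lower (-0.62, SE 0.14, edgeR adjusted p 0.00258), and BEC were 1.89-fold below early (-0.92, SE 0.14, edgeR adjusted p 3.38e-05). On total counts, Cp rose at the first step (0.53, edgeR adjusted p 0.00264), and full and BEC did not differ from early by a call (0.11 and -0.05, edgeR adjusted p 0.460 and 0.714). Its rank per kilobase of transcript was 57th of 50067 genes in early, 25th in intermediate, 28th in full and 26th in BEC.

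C-reactive protein fell at the first 2 steps and was not at the floor in any library. Crp was at 410, 534 and 463 CPM in early, at 160, 216 and 224 CPM in intermediate, at 84.8, 106 and 131 CPM in full and at 133, 138 and 147 CPM in BEC libraries. The 4 groups did not overlap, and full libraries were the lowest. Crp fell 2.34-fold (-1.23, SE 0.16, edgeR adjusted p 1.81e-05) and then by 0.90 on the log2 scale (SE 0.16, edgeR adjusted p 4.72e-04). BEC against full was 0.38 (SE 0.16, edgeR adjusted p 0.121), which passed in the fit with replicate number as a block (0.40, edgeR adjusted p 0.0115) and without full replicate 3 (0.55, edgeR adjusted p 0.0296). BEC lay below intermediate cells (-0.52, SE 0.16, edgeR adjusted p 0.0129), a call lost without intermediate replicate 2 (-0.47, edgeR adjusted p 0.0517) or 3 (-0.44, edgeR adjusted p 0.0563) and on total counts (-0.32, edgeR adjusted p 0.103).

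The 10 members together held 1.36% ± 0.247 of all counts in early, 0.899% ± 0.0959 in intermediate, 0.584% ± 0.0543 in full and 0.594% ± 0.112 in BEC libraries (SD, n = 3). Early libraries lay above intermediate ones and these above full ones, each with an exact permutation p of 0.1, 2-sided, which is the smallest that 3 against 3 can give (0.15 adjusted over 3 steps), and BEC and full libraries overlapped (exact permutation p 0.8). The make-up differed between the groups. Hp held 0.800% ± 0.194 of the counts in early and 0.0632% ± 0.00426 in BEC, Cp 0.359% ± 0.00978 and 0.346% ± 0.0742, and Lcn2 0.0595% ± 0.0232 and 0.166% ± 0.0376 (SD, n = 3).

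**Figure D3:**
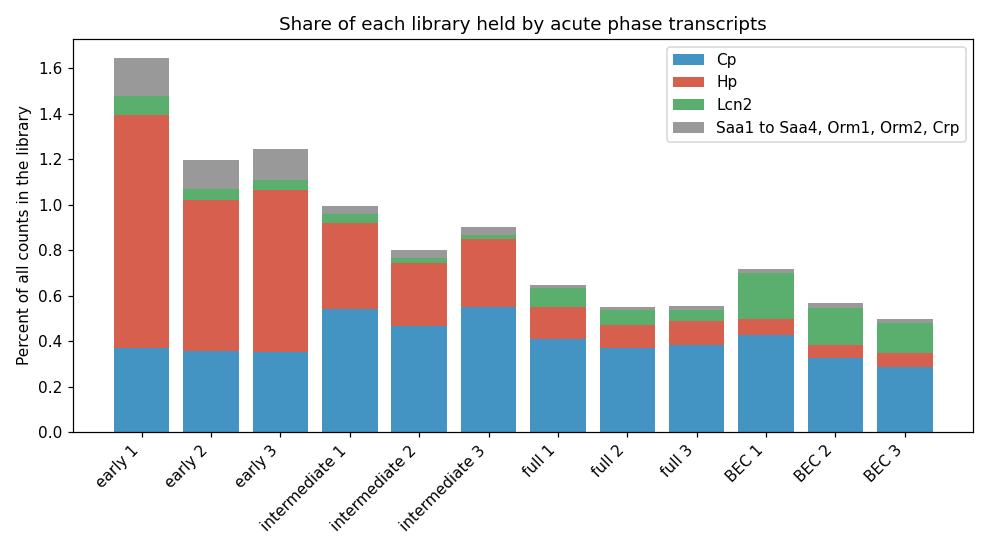
Percent of all counts held by Cp, Hp, Lcn2 and the other 7 members in each of the 12 libraries, as stacked bars. Hp is the largest part in early libraries, Cp in intermediate, full and BEC libraries, and Lcn2 is second in BEC.

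Set against albumin, the main hepatocyte plasma protein, the members split. These ratios use counts within a library and do not depend on its scaling. Alb itself was at 73433 ± 1333, 12617 ± 1882, 2579 ± 448 and 1651 ± 233 CPM from early to BEC (SD, n = 3). Per 1000 Alb counts, Orm1 was at 16.2 ± 3.10, 6.86 ± 1.41, 5.04 ± 0.872 and 7.58 ± 2.02 counts in the same order (SD, n = 3). Early libraries (13.8 to 19.7) lay above all others (4.04 to 9.73). Saa1 went from 1.42 ± 0.624 to 0.599 ± 0.193, 0.436 ± 0.107 and 0.609 ± 0.358 counts per 1000 Alb counts, and Saa2 from 0.610 ± 0.227 to 0.242 ± 0.0393, 0.165 ± 0.0791 and 0.244 ± 0.177. For Saa1 and Saa2, early libraries lay above intermediate and full ones and overlapped with BEC, where replicate 3 lay above early replicate 2. Intermediate and full libraries overlapped for Saa1 and did not for Saa2. Hp was at 166 ± 45.1, 249 ± 81.2, 385 ± 125 and 321 ± 35.9 per 1000 Alb counts, with overlap at each of the 3 steps. Crp was at 6.38 ± 0.732, 15.8 ± 0.461, 41.4 ± 3.08 and 85.2 ± 10.3 per 1000 Alb counts, with each group above the last and no overlap. Cp was at 74.1 ± 4.13, 400.0 ± 79.9, 1275 ± 255 and 1769 ± 467 per 1000 Alb counts, with overlap between full and BEC alone. Lcn2 was at 12.4 ± 5.20, 22.0 ± 14.9, 223 ± 89.8 and 855 ± 249 (SD, n = 3), with overlap between early and intermediate alone. These ratios were chosen after the data were seen and carry no test.

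**Figure D4:**
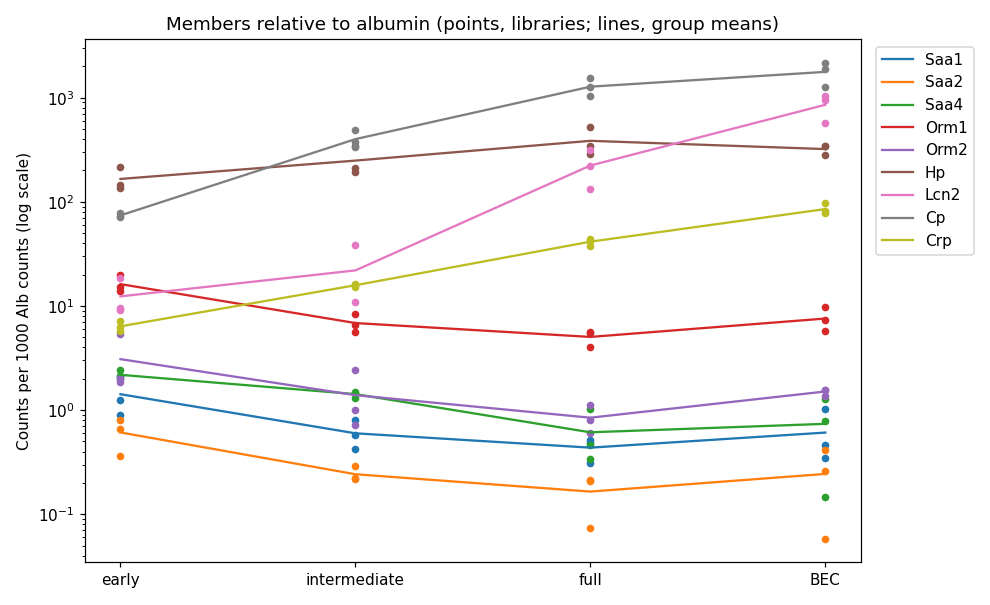
Counts of 9 members (Saa3 is left out for its zeros) per 1000 Alb counts on a log axis, with points for libraries and lines through the group means. Saa1, Saa2, Saa4, Orm1 and Orm2 lie lower in full than in early, whereas Hp, Lcn2, Cp and Crp lie higher.

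Other acute phase proteins were read from lists of genes. Of 24 further proteins that rise in inflammation, 23 were tested, and 19 fell and 2 rose between early and intermediate cells (median log2 fold change -1.59, against 0.06 over all genes), where 25.5% of all genes were called lower and 28.6% higher. Between intermediate and full cells 17 fell and 1 rose (median -1.70), where 19.9% of all genes were called lower and 20.8% higher. Between full cells and BEC 10 were lower and 1 higher (median -0.37), where 10.6% of all genes were called lower and 10.6% higher. On total counts, 15 fell and 2 rose at the first step, where 85.7% of all genes called were higher. Hamp, the iron hormone hepcidin, fell most at the first step (-3.60, edgeR adjusted p 1.96e-06) and Itih3, an inter-alpha-trypsin inhibitor heavy chain, at the second (-4.27, edgeR adjusted p 2.94e-07). Il1rn, the interleukin 1 receptor antagonist, rose at each step, from 7.12 ± 1.36 CPM in early to 33.4 ± 8.91, 136 ± 18.5 and 313 ± 15.7 CPM (SD, n = 3), with edgeR adjusted p of 6.98e-07, 1.28e-06 and 1.54e-04. A2m, alpha-2-macroglobulin, which was at or under 3 counts in each early library, was at 0.160 ± 0.138, 4.80 ± 4.29, 12.7 ± 7.99 and 0.691 ± 0.324 CPM (SD, n = 3), and was lower in BEC than in full cells (-4.19, edgeR adjusted p 0.00148). Its change at the second step (1.41, edgeR adjusted p 0.0846) passed in the fit with replicate number as a block (1.53, edgeR adjusted p 5.44e-04). Of 10 proteins that decrease in inflammation, among them Alb, 10 fell at the first step (median -2.38), 10 fell at the second (median -2.44) and 5 were lower in BEC than in full cells (median -0.50), beside the same shares of all genes. On total counts, 9 of the 10 fell at the first step, where 85.7% of all genes called were higher. Cyp2c29 (-3.85), Apoa1 (-4.07) and Ahsg (-2.85) fell most at the 3 steps.

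Receptors and factors upstream of the members changed in both directions. Of 25 listed genes 22 were tested, of which 9 rose and 9 fell at the first step, 7 rose and 1 fell at the second, and 3 were higher and 2 lower in BEC than in full cells. Of all genes 54.2%, 40.7% and 21.2% were called at these steps, with 20.8% higher and 19.9% lower at the second. On total counts, 11 rose and 6 fell at the first step and 11 rose and 1 fell at the second. Of all genes called on total counts, 85.7% were higher at the first step and 72.5% at the second. Il6, Il1a and Il1b did not pass the filter. Il6ra, the interleukin 6 receptor, was at 79.1 ± 22.4, 20.6 ± 7.07, 3.92 ± 0.325 and 4.34 ± 1.23 CPM from early to BEC (SD, n = 3), with log2 fold changes of -1.94 and -2.39 at the first 2 steps (edgeR adjusted p 8.42e-05 and 6.63e-05). Its signalling partner Il6st was at 187 ± 14.9 CPM in early and 327 ± 14.4 CPM in BEC (0.81, edgeR adjusted p 1.55e-05). Osmr, the oncostatin M receptor, which pairs with Il6st, rose from 11.96 ± 5.21 to 51.4 ± 14.3 CPM at the first step (2.10, edgeR adjusted p 7.74e-05). Stat3 and Socs3, the STAT3 feedback inhibitor, were not called at any of the 3 steps, and the sign of Stat3 at the first step turned from -0.35 to 0.32 on total counts, and at the second from -0.14 to 0.06. With replicate number as a block, Stat3 was called at the first step (-0.33, edgeR adjusted p 0.0201) and in BEC against full (0.41, edgeR adjusted p 0.0122). Socs3 was at 106, 21.0 and 15.3 CPM in early libraries 1 to 3. Its first step (-1.49, edgeR adjusted p 0.107) was called without early replicate 3 (-1.91, edgeR adjusted p 0.0388).

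Among the factors, Cebpb fell from 248 ± 81.6 to 79.0 ± 14.2 CPM at the first step (-1.65, edgeR adjusted p 0.00142) and Cebpd from 14.0 ± 1.26 to 5.67 ± 1.38 CPM (-1.30, edgeR adjusted p 6.86e-04). Cebpd was at 12.1 ± 2.95 CPM in BEC without a call between intermediate and full or between full and BEC, though the former passed in the blocked fit (0.63, edgeR adjusted p 0.0249) and on total counts (0.84, edgeR adjusted p 0.0182). On total counts the sign of Cebpd in full against early turned from -0.67 to 0.20. Nfkbiz, an NF-kB cofactor for Lcn2, rose from 68.5 ± 9.36 to 186 ± 21.1 CPM at the first step (1.44, edgeR adjusted p 5.62e-06), where Lcn2 itself fell. Its change at the second step (0.40, edgeR adjusted p 0.0610) passed in the blocked fit (0.39, edgeR adjusted p 0.00182). Il1r1, the interleukin 1 receptor, was at 96.6 ± 29.0, 47.1 ± 4.27, 70.0 ± 1.97 and 96.8 ± 7.65 CPM from early to BEC (SD, n = 3). Its fall at the first step (-1.04, edgeR adjusted p 2.41e-04) was not called on total counts (-0.37, edgeR adjusted p 0.0673), where the sign of full against early turned from -0.46 to 0.41. Tnf had 2 counts in all 3 early libraries together and was at 1.05 ± 0.683, 11.7 ± 3.42 and 39.7 ± 11.2 CPM in the 3 groups that follow (SD, n = 3). Il1rap, the co-receptor for interleukin 1, was lower in BEC than in full cells (-0.52, edgeR adjusted p 0.00888). Of the macrophage markers given above, Csf1r was called higher with Tnf at all 3 steps. Cd68 was called lower at the first step and higher with Tnf in BEC than in full cells (1.10, edgeR adjusted p 0.0127), and the part of macrophages in the Tnf level was not tested.

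Partners of the members also changed in both directions. Of 12 listed genes 8 were tested, with 2 higher and 3 lower at the first step, 3 higher and 3 lower at the second, and 1 higher and 2 lower in BEC than in full cells, beside 54.2%, 40.7% and 21.2% of all genes called. On total counts the first step had 4 higher and 2 lower, where 85.7% of all genes called were higher. There Atp7b turned from -0.16 to 0.51 (edgeR adjusted p 7.17e-04), Tlr4 was called at 1.75 (edgeR adjusted p 0.0328) and Slc40a1 was not called (-0.08, edgeR adjusted p 0.527). Scarb1, a lipoprotein receptor that binds serum amyloid A, fell at the first step (-1.29, edgeR adjusted p 3.19e-08). Tlr4, the endotoxin receptor, was higher (2.28, edgeR adjusted p 1.35e-04) and Lrp1, a scavenger receptor, lower (-1.58, edgeR adjusted p 1.21e-05) in BEC than in full cells. Slc22a17, a proposed lipocalin 2 receptor, rose from 1.04 ± 0.891 CPM in early to 12.01 ± 4.41 and 34.8 ± 3.73 CPM (3.56 and 1.54, edgeR adjusted p 3.02e-05 and 0.00148) and was at 41.1 ± 5.88 CPM in BEC. Heph, hephaestin, a ferroxidase related to ceruloplasmin, was at 0.282 ± 0.177 CPM in early and rose from 0.919 ± 0.437 to 9.24 ± 0.937 CPM between intermediate and full cells (3.33, edgeR adjusted p 1.65e-06). Slc40a1, ferroportin, the iron exporter that works with ceruloplasmin, was at 205 ± 34.7 CPM in early and 93.2 ± 7.16 CPM in BEC (-1.14, edgeR adjusted p 5.20e-07). Atp7b, which loads copper onto ceruloplasmin, fell at the second step from 118 ± 15.7 to 68.4 ± 2.95 CPM (-0.78, edgeR adjusted p 5.01e-05). Cd163, the haptoglobin receptor of macrophages, did not pass the filter.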

How the data were processed

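The authors deposited raw counts per gene symbol, which were used for all tests. A second deposited table, described by its name as normalized by median of ratios, was not used. Per the submitters' processing notes, STAR 2.7.10b, featureCounts 2.0.1, DESeq2 and the GRCm39 build were used. Strandedness and the treatment of reads matching several genes are not given in the sources used here. Titles gave the groups and replicates.

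Analysis used R 4.3.3, edgeR 4.0.16 and limma 3.58.1, with DESeq2 1.42.0 as an alternative and Python 3.11.15, matplotlib 3.10.9 and Biopython 1.88. Genes were kept by filterByExpr (16210 of 53599). TMM factors scaled the libraries. A single model held all 12 libraries with the group as its factor. A gene was called where its Benjamini-Hochberg adjusted p was below 0.05. SE is the absolute log2 fold change divided by the square root of F. CPM per kilobase used GENCODE M21 principal transcripts (97.7% of tested genes had a length). Levels at or under 3 counts were the floor, for counting error only, since PCR reads are not independent molecules. The fit was also run on simulated counts with few changed genes, as many higher as lower. That setting does not test the shift in scale between these groups, and its outcome is not given here.

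The members, lists and tests were chosen with earlier results of these data known. The text names the members, a set list of regulators and partners, the called gene that moved most in each direction in each list and step (at least 10 CPM in the higher group, no overlap), and the 3 genes outside the members nearest each member in profile, of which 1 is not reported here. Same-numbered libraries deviated together across genes at the 3 consecutive steps (r from 0.121 to 0.322 in every pair). In the other comparisons r was lower but positive in every pair, from 0.0442 to 0.209. Libraries with different numbers were not compared, so these values do not settle which groups are paired. What the numbers mark is not stated. Alternatives covered scaling, DESeq2, filters, a replicate block, fits of 2 groups and leaving out each library.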

Additional observations from a re-analysis of the deposited data

How the results depend on the processing

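Of the 10 members, the number called stayed within 1.5 times its value in every alternative except for BEC against full, where it was 1 instead of 2 with no low-count filter and ranged from 1 to 2 without single libraries. Lcn2 was the call lost with no low-count filter (1.30, edgeR adjusted p 0.120), and the same setting (1.10, edgeR adjusted p 0.131) and the fit of only the 2 groups (1.10, edgeR adjusted p 0.0916) ended its call between full and intermediate cells; the cause was not tested. With total counts only, Cp reversed at the first step (0.53) and in full against early (0.11), and Lcn2 in full against early (0.15), as the median of all genes shifts. Without single libraries, log2 fold changes between BEC and full ranged from -0.87 to 0.18 for Saa1, from -0.86 to 0.40 for Saa2, from -1.29 to 0.44 for Saa4, from -0.41 to 0.20 for Orm1 and from -0.015 to 0.32 for Orm2, none called. The difference in the share of counts held by the members, BEC minus full, ranged from -0.0519 to 0.0577 percentage points without single libraries. With the replicate block, Crp was called in BEC against full (0.40), and it changed no other call of a member at the 3 consecutive steps. Against early cells, Lcn2 was called with the block in full (-0.68, edgeR adjusted p 3.10e-04) and in BEC (0.66, edgeR adjusted p 3.75e-04). On total counts, higher genes made up 85.7% of calls for intermediate against early (4641 of 8778 with TMM factors), 72.5% of those between full and intermediate (3378 of 6598), 81.8% of those between full and early (6320 of 11522), 80.3% of those between BEC and early (6488 of 11825) and 66.5% of those between BEC and intermediate (4251 of 8478). The depth limits Saa1 to Saa4 and Orm2 in full cells and BEC, where libraries held between 0 and 73 counts of each.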

Other observations

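The genes other than the 10 members whose profiles over the 12 libraries were nearest to those of the members are given as a description, by the root mean square difference of centred log2 CPM among 10913 such genes with at least 10 CPM in the highest group. The log2 CPM held a prior count of 2, which flattens the profile of a sparse gene. The genes nearest to Saa3 match its flattened profile and not its fold changes. Some members were nearer to each other, with Saa1 at 0.231 from Orm1 and 0.294 from Saa2. Outside the members, nearest to both Saa1 (0.287) and Orm1 (0.168) was Asgr1, a subunit of the asialoglycoprotein receptor of hepatocytes, at 587 ± 130, 47.2 ± 2.62, 5.52 ± 0.739 and 6.44 ± 2.84 CPM from early to BEC (SD, n = 3). After it came Slc25a47 and Cyp2c37 for Saa1, and Pon1 and Cyp2e1 for Orm1. Outside the members, those nearest to Saa2 were Rdh9, Agxt and Haao, to Saa4 Aspdh and Timd2, and to the sparse Saa3 Entpd5, Fetub and Gm30692. Nearest to Orm2 were Wfdc21 (0.315), Fgl1 (0.318) and Serpina3n (0.359), of which Fgl1 and Serpina3n encode secreted acute phase proteins. Nearest to Hp was Trf, transferrin (0.149), at 36851 ± 5604, 7420 ± 1221, 2727 ± 695 and 1539 ± 171 CPM from early to BEC (SD, n = 3). Trf, like Fetub above, is on the list of proteins that decrease in inflammation. After Trf came Creg1 and Lcp1. The nearest such gene to Lcn2 was farther away than that of any other member, P2ry2, a nucleotide receptor (0.538), at 31.5 ± 4.37, 5.21 ± 1.69, 14.4 ± 3.73 and 61.9 ± 5.55 CPM from early to BEC (SD, n = 3). Slc1a2 and Ahr followed. Nearest to Cp were Dram2 (0.108), Tmem176b (0.109) and Clp1, and to Crp Agmo, Arrdc3 and C2cd2l.

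The replicate number went with the level of some members. Replicate 1 was the highest library for Hp and for Lcn2 in 4 of 4 groups, and for Orm2 and Cp in 3 of 4. Replicate 3 was the highest for Saa4 in 4 of 4 groups and for Saa2 and Crp in 3 of 4. This pattern was noticed in the data, and what the numbers mark is not stated.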
